A study of Mus musculus with 2 samples.

Results

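The genes described here encode titin (Ttn), the M-band proteins obscurin-like 1 (Obsl1), myomesin 1 (Myom1) and myomesin 2 (Myom2), and the myosin-binding proteins C of slow skeletal (Mybpc1), fast skeletal (Mybpc2) and cardiac muscle (Mybpc3). They were taken by gene symbol, and each of the 7 had a single row among the 37620 gene rows (34236 symbols) of both tables. RNA sequencing gave their levels in 2 libraries of whole mouse heart at embryonic day 12.5, replicate 2 and replicate 1, from the strain labelled Mixed C57BL/6 x 129S6 with no treatment. The libraries form 1 group, so no conditions were compared. The labels do not state if these were separate embryos or pools, and the spread between them may be technical.

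Titin is a giant protein that runs from the Z-disc to the M-band of the sarcomere. At the M-band its end is tied to the myosin filaments by the myomesins, with the Obsl1 product bound there as well. The myosin-binding proteins C sit in stripes along the thick filament, attach to both myosin and titin, and tune the attachment of myosin heads to actin. All of these proteins are built largely from repeated immunoglobulin and fibronectin domains.

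The cardiac form Mybpc3, Myom1 and Obsl1 were abundant in the embryonic heart, Ttn was low per unit of transcript length, and the forms known from skeletal or adult muscle were at the edge of detection. Levels are in FPKM, fragments scaled to the length of the transcript in kilobases and to the mapped fragments of the library, so that levels of different genes can be set side by side. By mean level the order was Mybpc3, Myom1, Obsl1, Ttn, Mybpc1, Myom2 and Mybpc2. In both libraries 5 of the 7 genes reached 1 FPKM, the level taken as detection, as did 52.4% of all 22240 protein-coding genes. Of all FPKM, the 7 genes together made up 0.117% in replicate 2 and 0.125% in replicate 1. Their median was 4.17 FPKM, against 1.68 FPKM over all protein-coding genes.

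The RNA held markers of heart muscle, of other heart cells and of red cells. All 9 cardiomyocyte markers were detected (median 917 FPKM), as were all 6 endothelial markers (median 30.8 FPKM), all 6 red cell markers (median 1273 FPKM) and 5 of 6 smooth muscle markers. All values added up to 382561 FPKM in replicate 2 and to 388230 FPKM in replicate 1. The files give no absolute depth. Of 2828 genes above 0 and under 0.1 FPKM in both libraries, 478 sat at the most frequent ratio of replicate 2 over replicate 1. If these genes held equal numbers of fragments in both libraries, replicate 1 had 1.33 times the depth of replicate 2. In whole-organ RNA, fewer cells of a type and less RNA per cell cannot be told apart. An exact two-sided sign-flip test on 2 libraries cannot go below p = 0.5, so differences are given by size and set against the spread between the libraries.

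Mybpc3, the cardiac myosin-binding protein C and a major gene of hypertrophic cardiomyopathy in human, was the highest of the 7 genes (chromosome 2, 90958301 to 90976673 on mm9, plus strand). It stood at 289 FPKM in replicate 2 and 309.6 FPKM in replicate 1, a mean of 299 ± 14.8 FPKM (SD, n = 2). It ranked 130 by mean among the protein-coding genes, above 99.4% of them. Mybpc1, the slow skeletal form (chromosome 10, 87981024 to 88067897, minus strand), had 1.68 FPKM in replicate 2 and 1.80 FPKM in replicate 1. Mybpc2, the fast skeletal form (chromosome 7, 51757088 to 51780039, minus strand), had 0.332 FPKM in replicate 2 and 0.406 FPKM in replicate 1. The 3 forms had the same order in both libraries.

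The cardiac form made up 99.3% of the FPKM of the 3 forms in each library. Mybpc3 was 172 times Mybpc1 in both libraries, and the log2 ratio of FPKM + 1 was 6.77 ± 0.03 (SD, n = 2). Against Mybpc2 the ratio was 870 times in replicate 2 and 763 times in replicate 1 (7.78 ± 0.02 on the same log2 scale). Both ratios were far larger than 0.32, the 95th percentile of log2 differences between the libraries among genes averaging at least 1 FPKM. Mybpc1 was 5.07 times Mybpc2 in replicate 2 and 4.44 times in replicate 1, a ratio beyond the spread as well. The pseudocount of 1 FPKM shrinks log2 ratios of genes this low.

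**Figure D1:**
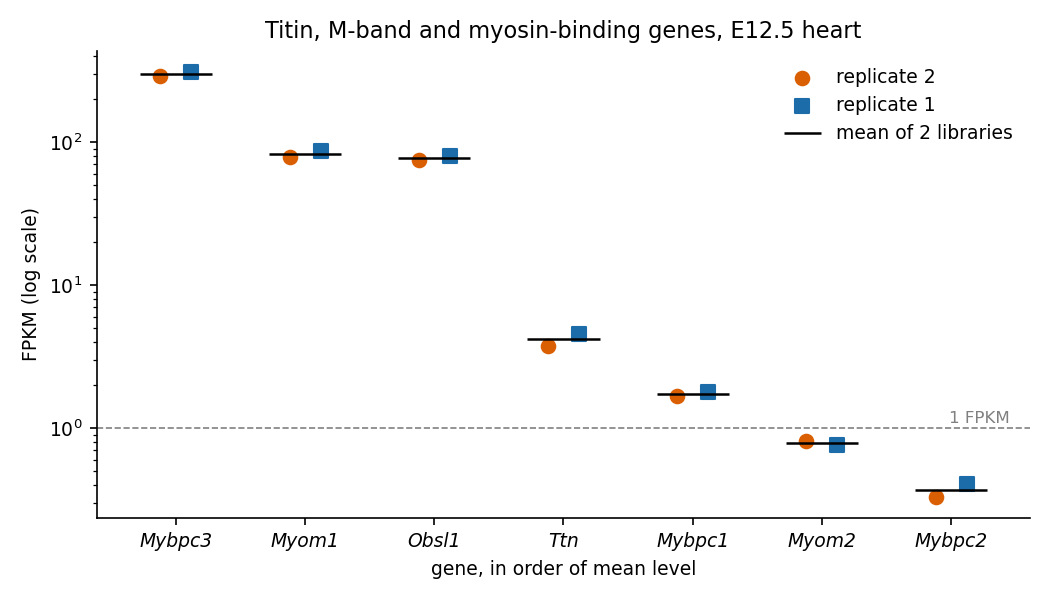
FPKM of each gene in replicate 2 (circles) and replicate 1 (squares) on a log axis, with the mean as a bar and the detection limit of 1 FPKM dashed. Mybpc3 stands at 299 FPKM, Myom1 and Obsl1 lie close together at 82.9 and 77.3 FPKM, and Myom2 and Mybpc2 lie below the dashed line in both libraries.

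The coding sequences of these related genes share only short identical runs, which bears on how well fragments can be assigned to them. The longest run of identical bases was 15 between Mybpc3 and Mybpc1, 20 between Mybpc3 and Mybpc2, 21 between Mybpc1 and Mybpc2, and 17 between Myom1 and Myom2. Myom1 and Ttn shared a run of 19 bases. No window of 50 bases of Mybpc3, Myom1 or Myom2 occurred in another annotated gene. Such windows made up 5.24% of Mybpc1 and 2.72% of Mybpc2, the lowest forms. The longest shared run of 3 pairs within a family is printed to show the stretch most alike in each pair, with 20 bases of coding sequence on each side, read 5′ to 3′ from GENCODE M21 transcripts on GRCm38. Capitals mark the shared run, and the flanking bases in lower case show how soon the genes diverge. The first pair is Mybpc3 chr2:91124476-91124613, plus strand, exons 15 to 16, with the intron between them in the span, and Mybpc2 chr7:44516005-44516175, minus strand, exons 10 to 11, with the intron between them in the span. The second is Mybpc1 chr10:88548774-88548834, minus strand, exon 16, and Mybpc2 chr7:44511815-44511875, minus strand, exon 16. The third is Myom1 chr17:71106277-71106333, plus strand, exon 27, and Myom2 chr8:15117670-15117726, plus strand, exon 26.
Mybpc3: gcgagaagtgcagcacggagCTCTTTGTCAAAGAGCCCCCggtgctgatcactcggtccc
Mybpc2: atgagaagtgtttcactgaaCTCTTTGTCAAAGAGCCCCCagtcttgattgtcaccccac
Mybpc1: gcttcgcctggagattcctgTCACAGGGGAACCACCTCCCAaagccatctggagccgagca
Mybpc2: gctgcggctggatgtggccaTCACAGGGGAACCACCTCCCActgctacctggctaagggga
Myom1: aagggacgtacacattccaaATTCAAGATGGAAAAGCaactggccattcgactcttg
Myom2: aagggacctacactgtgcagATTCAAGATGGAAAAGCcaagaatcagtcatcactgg

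Set against the myosin it binds, Mybpc3 lay between the heavy chain genes. Mybpc3 was 0.713 times Myh7, the slow beta heavy chain, in replicate 2 and 0.634 times in replicate 1. It was 1.49 times Myh6, the alpha heavy chain, in replicate 2 and 1.39 times in replicate 1. Both log2 ratios, -0.57 ± 0.12 and 0.52 ± 0.07 (SD, n = 2), were larger in size than 0.32, the spread of single genes between the libraries. That spread leaves out any error shared by both libraries, such as the transcript length used for a gene. Per 100 FPKM of Myh6 and Myh7 together there were 45.9 ± 3.28 FPKM of Mybpc3, 12.7 ± 0.601 of Myom1, 11.9 ± 0.843 of Obsl1 and 0.636 ± 0.00723 of Ttn. Myh6 and Myh7 are close paralogues, so the split of fragments between them is uncertain.

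Among M-band genes, Myom1, the myomesin present in all striated muscle (chromosome 17, 71368861 to 71476196, plus strand), had 78.5 FPKM in replicate 2 and 87.2 FPKM in replicate 1, a mean of 82.9 ± 6.11 FPKM. Myom2, also called M-protein and known from adult heart and fast skeletal fibres (chromosome 8, 15057653 to 15133541, plus strand), had 0.808 FPKM in replicate 2 and 0.758 FPKM in replicate 1. Myom1 was thus 97.2 times Myom2 in replicate 2 and 115 times in replicate 1 (log2 ratio 5.55 ± 0.13). The third myomesin, Myom3, was lower still at 0.0560 ± 0.00539 FPKM. Embryonic heart is known for the EH splice form of myomesin 1, which carries an extra elastic segment, but the tables hold 1 value per gene and do not separate splice forms.

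Obsl1, whose product binds titin and myomesin at the M-band (chromosome 1, 75475885 to 75503027, minus strand), had 74.6 FPKM in replicate 2 and 80.1 FPKM in replicate 1, a mean of 77.3 ± 3.87 FPKM. Myom1 and Obsl1 were neighbours in the order and did not differ beyond the spread: their log2 ratio was 0.10 ± 0.03, under 0.32. Obsl1 also works outside muscle, where it forms the 3M complex with the ubiquitin ligase scaffold Cul7 and the adaptor Ccdc8. All 3 listed partners were detected, Cul7 at 31.3 ± 1.33, Ccdc8 at 26.2 ± 0.0549 and the F-box protein gene Fbxw8 at 23.3 ± 0.611 FPKM. Which cells of the heart held the Obsl1 RNA cannot be read from whole-organ values.

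Ttn (chromosome 2, 76542037 to 76820604, minus strand) had 3.78 FPKM in replicate 2 and 4.56 FPKM in replicate 1, a mean of 4.17 ± 0.551 FPKM. That is above 58.6% of protein-coding genes and is 0.390 times the 10.7 FPKM median of those averaging at least 1 FPKM. Per length it was 0.0481 times Myom1 in replicate 2 and 0.0523 times in replicate 1 (log2 ratio -4.02 ± 0.05). Its log2 ratio to Obsl1 was -3.93 ± 0.08. Ttn was nonetheless above its lower neighbour Mybpc1, at 2.25 times in replicate 2 and 2.53 times in replicate 1 (0.91 ± 0.11). Of the other neighbours in the order, Mybpc3 over Myom1 had a log2 ratio of 1.84 ± 0.03 and Mybpc1 over Myom2 one of 0.62 ± 0.07, both beyond the spread. Myom2 over Mybpc2, at 0.38 ± 0.08, did not exceed 0.42, the 95th percentile among the 500 genes nearest in level to Mybpc2.

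FPKM divides by transcript length, and Ttn has by far the longest transcripts of the 7, so its distance to the others changes when length is put back. The longest coding transcript of Ttn in GENCODE M21 has 106824 bases in 347 exons, against 5648 bases for Myom1 and 4163 bases for Mybpc3. FPKM times this length in kilobases estimates the fragments of a gene per 1000000 mapped fragments, written FPM here. Ttn then stood at 404 FPM in replicate 2 and 487 FPM in replicate 1, next to Myom1 at 444 in replicate 2 and 492 in replicate 1, and to Obsl1 at 424 in replicate 2 and 455 in replicate 1. The ranges of these 3 genes overlap. Ttn stayed below Obsl1 in replicate 2, as in FPKM, and was above it only in replicate 1. Mybpc3 stayed highest at 1245 ± 61.8 FPM, while Mybpc1, Myom2 and Mybpc2 had 6.83, 3.97 and 1.33 FPM. Of the estimated fragments of all 7 genes, Ttn held 17.1% and Mybpc3 47.7%, whereas of their FPKM Ttn held 0.843% in replicate 2 and 0.941% in replicate 1.

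This estimate rests on which transcript the fragments came from, and the 21 coding transcripts annotated for Ttn range widely. With the median length of 2130 bases, which belongs to a fragment of the gene, Ttn would have 8.88 FPM. Summed over the 30318 symbols with a length, FPKM times longest length gave 920139 in replicate 2 and 948791 in replicate 1. Both are close to the 1000000 that the unit is defined by. Ttn adds a mean of only 445 to these sums, so they cannot show which length holds for Ttn. Repeats within Ttn touch few windows: 0.710% of its windows of 50 bases occur more than once in the transcript, and 0.198% occur in another gene.

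**Figure D2:**
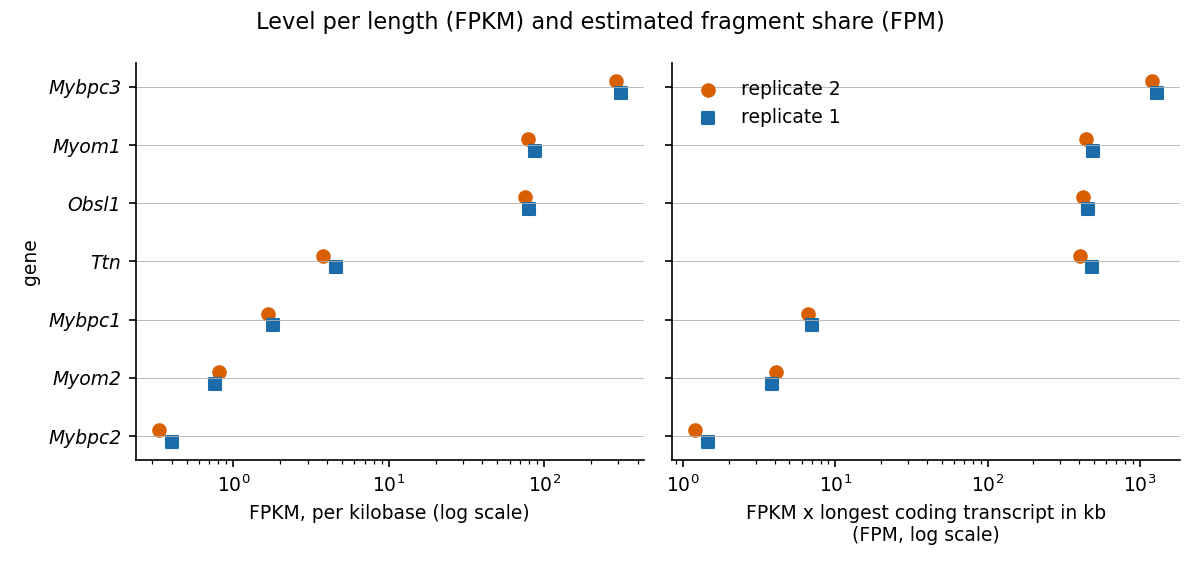
Left, FPKM of each gene, and right, FPKM times the length of its longest coding transcript in kilobases, in replicate 2 (circles) and replicate 1 (squares), both on log axes. Ttn lies at 4.17 FPKM on the left and beside Myom1 and Obsl1, at 445 FPM, on the right.

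All 5 detected genes were slightly lower in replicate 2 than in replicate 1, and so were 69.3% of protein-coding genes averaging at least 1 FPKM. The log2 difference of FPKM + 1, replicate 2 minus replicate 1, was -0.10 for Mybpc3, -0.15 for Myom1, -0.10 for Obsl1, -0.22 for Ttn and -0.06 for Mybpc1. None of these 5 differed 2-fold, as 0.736% of the 12637 genes averaging at least 1 FPKM did. Myom2 and Mybpc2 fell below that mean and differed by 0.04 and -0.08.

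The difference between the libraries moved with transcript length. Among protein-coding genes averaging at least 5 FPKM, the median log2 difference was -0.03 for 2258 genes with a transcript under 2000 bases and -0.06 for 2511 genes from 4000 to under 8000 bases. It was -0.12 for 378 genes from 8000 to under 15000 bases. Of these 378 genes 348 were lower in replicate 2, against 1445 of the 2258 under 2000 bases. Beyond 15000 bases only 15 genes remained, with a median of -0.17. Ttn, at a mean under 5 FPKM and outside these classes, had the longest transcript and, on the log2(FPKM + 1) scale, the largest difference of the 7 genes. That difference, -0.22, was smaller in size than the 0.32 spread of single genes. It was also within 0.53, the 95th percentile among the 500 genes nearest in level to Ttn. As a plain ratio of replicate 2 over replicate 1, Mybpc2 at 0.817 was further from equality than Ttn at 0.829. The part of length in its value was not tested.

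**Figure D3:**
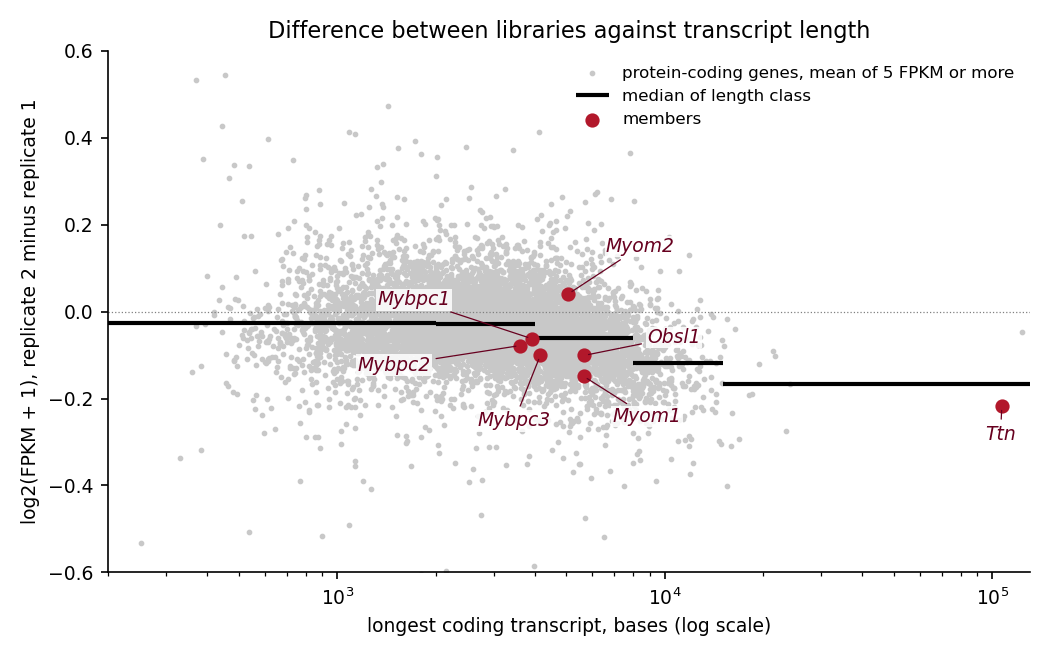
Log2 difference of FPKM + 1, replicate 2 minus replicate 1, against the length of the longest coding transcript on a log axis, for 8612 protein-coding genes averaging at least 5 FPKM (grey; 20 lie outside the axes), with the median of each length class as a bar and the 7 genes in red. The class medians run from -0.03 at the short end to -0.17 at the long end, and Ttn lies at -0.22.

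Of 19 listed partners of titin, 16 were above it per length in both libraries. Ttn was above 58.6% of all protein-coding genes but only 21.7% of those averaging at least 1 FPKM. Most detected genes thus stood above it too, and the count is not particular to the partners. Of the Z-disc partners 5 of 5 were detected, with a median of 105 FPKM: the muscle LIM protein gene Csrp3 at 494 ± 15.2, the alpha-actinin gene Actn2 at 204 ± 14.6, Ldb3 at 105 ± 6.25, the nebulin relative Nebl at 99.1 ± 7.25 and the titin cap gene Tcap at 44.2 ± 2.68 FPKM. Of the I-band partners 6 of 7 were detected, led by the small heat shock protein gene Cryab at 280.5 ± 5.13 and the stress-responsive ankyrin repeat gene Ankrd1 at 222 ± 12.2 FPKM. Its skeletal relative Ankrd2 was at 0.0192 ± 0.00574 FPKM and the calpain gene Capn3 at 3.66 ± 0.144 FPKM. Of the partners near the M-band 7 of 7 were detected, among them the ubiquitin ligase genes Trim55 at 99.7 ± 1.10, Trim63 at 39.8 ± 0.534 and Trim54 at 5.20 ± 0.0350 FPKM. The autophagy receptor genes Sqstm1 and Nbr1 stood at 71.9 ± 1.72 and 30.2 ± 0.0974 FPKM.

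All listed genes for folding myosin (4), splicing titin (3) and phosphorylating myosin-binding protein C (4) were detected, as were 52.4% of all protein-coding genes. Of the chaperones, Hsp90aa1 was at 156 ± 7.49 and Smyd1 at 109 ± 0.440 FPKM. The myosin chaperone gene Unc45b stood at 64.4 ± 2.33 and its general relative Unc45a at 8.15 ± 0.513 FPKM. Rbm20, whose product makes titin exons skip, stood at 19.7 ± 2.34, Rbm24 at 67.3 ± 1.26 and the splicing repressor Ptbp1 at 89.4 ± 2.45 FPKM. Among kinases, the protein kinase A subunit gene Prkaca was at 111 ± 1.95 and Camk2d at 49.0 ± 2.50 FPKM, above Prkd1 at 5.68 ± 0.325 and Prkce at 5.40 ± 0.112 FPKM.

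Of 5 other listed genes of the myosin-binding and M-band families, 3 were detected. These were the muscle kinase gene Speg at 34.6 ± 1.55, the atrial myosin-binding protein H-like gene Mybphl at 20.6 ± 0.762 and the M-band gene Lrrc39 at 16.7 ± 0.312. Mybph, the skeletal myosin-binding protein H, was at 0.135 ± 0.0631 FPKM and stayed under detection with Myom3. Of 14 thick filament myosin genes 9 were detected (median 49.1 FPKM), the highest being the light chain gene Myl2 at 3268 ± 115 FPKM. The skeletal heavy chains Myh2, Myh4 and Myh3 lay between 0.0215 and 0.0352 FPKM.

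**Figure D4:**
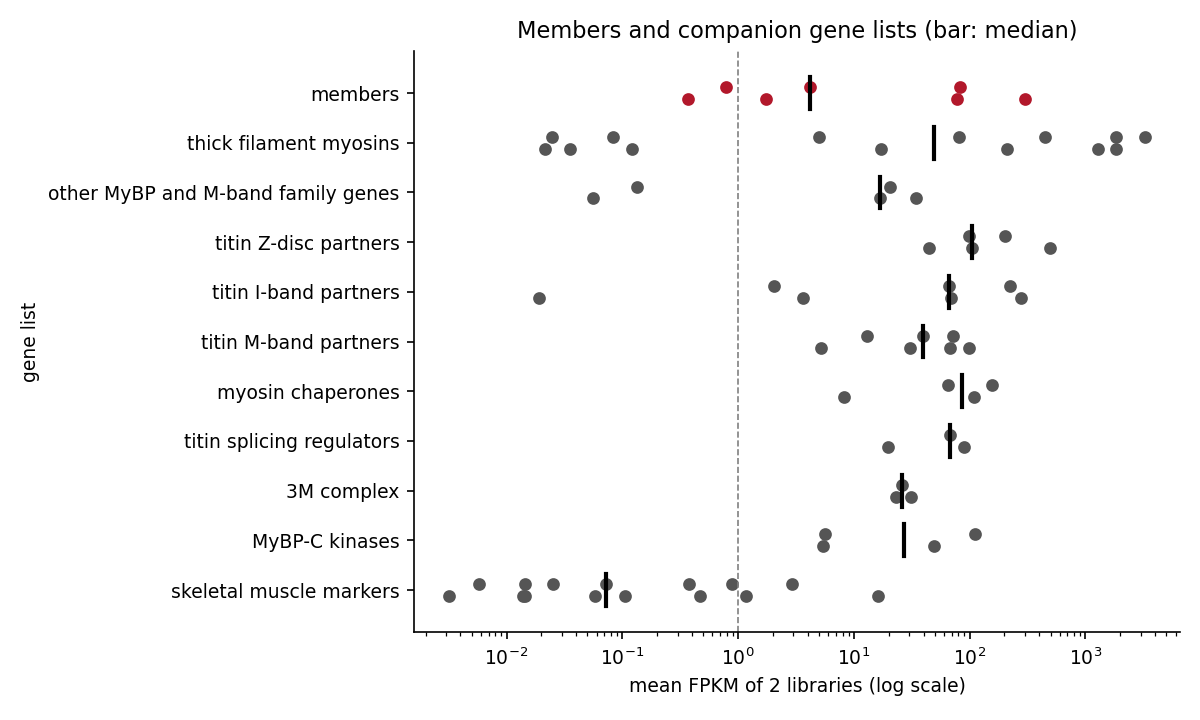
Mean FPKM of each gene on a log axis for the 7 genes (red) and for lists of related genes (grey), with the median of each list as a bar and 1 FPKM dashed. The Z-disc, I-band and M-band partner lists have medians of 105, 66.4 and 39.8 FPKM, whereas the skeletal muscle markers have a median of 0.0719 FPKM.

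The 3 lowest genes of the set lay in the same range as some genes of skeletal muscle, a range not particular to such genes. Mybpc1, Myom2 and Mybpc2 stood above 50.2%, 45.6% and 41.3% of all protein-coding genes. Of 15 skeletal muscle markers 3 were detected, against 52.4% of all protein-coding genes. The list summed to 20.1 FPKM in replicate 2 and 24.4 FPKM in replicate 1, of which the troponin gene Tnni2 held most at 13.9 and 18.5 FPKM. Also detected were the troponin gene Tnnt3 at 2.90 ± 0.225 and Actn3 at 1.16 ± 0.191 FPKM, followed by Chrng at 0.879 ± 0.314 FPKM. Of the muscle regulators, Myod1 was at 0.105 ± 0.0269, Myf5 at 0.0145 ± 0.00401 and Pax7 at 0.00579 ± 0.00364 FPKM. Myog was higher at 0.466 ± 0.0135 FPKM, above the mean of Mybpc2 at 0.369 FPKM. None of the 15 was at 0 in both libraries. The part of skeletal muscle RNA in the levels of Mybpc1, Mybpc2 and Myom2 was not tested.

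Among 92 listed genes, those nearest in level to each member were found by the distance of log2(FPKM + 1) over both libraries. With 2 libraries this is a likeness of level only. Most listed genes under 1 FPKM belong to skeletal muscle, so a skeletal neighbour of the lowest members was likely from the start. Mybpc3 was nearest to Cryab (distance 0.14) and to the calcium pump inhibitor Pln (0.45). Myom1 and Obsl1 both had the light chain gene Myl1 as nearest, at distances of 0.08 and 0.10. Ttn was nearest to Capn3 (0.29), Mybpc1 to the ankyrin repeat gene Ankrd23 (0.26), Myom2 to the embryonic acetylcholine receptor subunit Chrng (0.29) and Mybpc2 to the skeletal calcium channel gene Cacna1s (0.10).

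Some members share their span with other rows of the tables, and the strand setting of the counting is not given. Ttn overlaps the antisense gene Gm13938, listed at 0 in both libraries. Obsl1 overlaps 162 bases of Chpf, on its own strand at 17.3 FPKM, and Tmem198, on the opposite strand at 0.360 FPKM. Myom1 lies inside the span of the noncoding gene Gm16724 at 0.0947 FPKM, and Myom2 spans the pseudogene Gm15678 at 0.0193 FPKM. No other row overlapped a gene of the myosin-binding protein C family.

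RefSeq promoters on GRCm38.p6, from 250 bases before to 50 bases after the start site, were matched for 6 of the 7 genes, all but Myom2. MEF2 factors and serum response factor, which binds the CArG box, are known regulators of muscle genes. A MEF2 motif, sought on both strands like all motifs here, occurred in Mybpc3 and Ttn and in 3.19% of all 32851 promoters. A CArG box occurred in Myom1 and in 1.63% of all promoters. GATAA, the core bound by GATA factors, occurred in Mybpc3 and Myom1 and in 25.4% of all promoters. None of these 3 occurred in the windows of Obsl1, Mybpc1 or Mybpc2. CANNTG, the E-box, was found in all 6 and in 72.3% of all promoters. TATAAA, a core promoter motif, was found in none of the 6 and in 13.6% of all promoters, while AAGTG, a core bound by Nkx2-5, was found in Mybpc3 alone and in 46.4% of all promoters, where it overlapped a CANNTG match. CATTCC, the motif of TEAD factors, was found in Ttn and Mybpc2 and in 14.7% of all promoters.

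The promoters of the genes with a MEF2 or CArG match are shown, with that of Mybpc1 as the low relative of Mybpc3. Capitals mark MEF2, CArG and GATAA matches on either strand. The positions are Mybpc3 chr2:91117894-91118193, plus strand, Ttn chr2:76982498-76982797, minus strand, Myom1 chr17:71019307-71019606, plus strand and Mybpc1 chr10:88605103-88605402, minus strand. A match describes these letters only, and whether a factor binds there was not measured. Of CG dinucleotides the Mybpc3 window held 1, Myom1 2, Obsl1 8, Ttn 8, Mybpc2 9 and Mybpc1 11, against a median of 7 over all promoters. A link of these counts to level was not tested.
Mybpc3: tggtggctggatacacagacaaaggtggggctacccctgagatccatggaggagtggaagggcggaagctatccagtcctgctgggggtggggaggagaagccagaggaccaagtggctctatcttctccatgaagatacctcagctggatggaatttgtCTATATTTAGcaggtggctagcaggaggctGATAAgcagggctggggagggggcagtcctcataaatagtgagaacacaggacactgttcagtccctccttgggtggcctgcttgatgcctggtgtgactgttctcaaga
Ttn: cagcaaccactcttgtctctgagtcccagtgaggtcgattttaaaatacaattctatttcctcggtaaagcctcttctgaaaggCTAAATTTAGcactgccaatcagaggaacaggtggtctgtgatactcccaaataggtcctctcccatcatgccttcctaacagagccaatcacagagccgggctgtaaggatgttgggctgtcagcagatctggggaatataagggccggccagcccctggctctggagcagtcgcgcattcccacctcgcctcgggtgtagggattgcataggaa
Myom1: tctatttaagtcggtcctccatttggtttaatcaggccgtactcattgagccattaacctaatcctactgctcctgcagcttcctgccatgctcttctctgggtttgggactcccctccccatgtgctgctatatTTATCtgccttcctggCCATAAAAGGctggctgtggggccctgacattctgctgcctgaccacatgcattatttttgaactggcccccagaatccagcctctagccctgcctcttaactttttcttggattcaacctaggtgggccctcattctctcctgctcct
Mybpc1: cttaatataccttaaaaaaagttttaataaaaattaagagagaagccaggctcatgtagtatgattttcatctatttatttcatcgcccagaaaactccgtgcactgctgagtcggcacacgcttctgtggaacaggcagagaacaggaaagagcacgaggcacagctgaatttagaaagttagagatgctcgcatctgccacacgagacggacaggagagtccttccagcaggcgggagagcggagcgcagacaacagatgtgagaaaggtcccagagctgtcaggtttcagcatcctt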

How the data were processed

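The authors deposited FPKM values, 1 per gene and library, per the file headers. The submitters' processing notes name GSNAP as well as Cufflinks and Cuffnorm, all with no version, and mm9 next to hg19 as builds. The annotation, the strand setting and the treatment of multiply matching reads were not given in the sources used here. Coordinates of genes are those of the files on mm9, and sequences and transcript lengths come from GENCODE M21 and RefSeq on GRCm38. No coordinates were converted. Per the labels' protocols, RNA was extracted with Trizol and libraries made with the TruSeq RNA v2 kit.

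Rows with the same symbol were summed. Log2 values used a pseudocount of 1 FPKM. Pair ratios were set against the 95th percentile of differences between the libraries among genes averaging at least 1 FPKM. This limit describes the same gene in different libraries. It does not measure errors in a ratio of different genes that both libraries share. Transcript length is that of the longest coding transcript, matched by gene ID, which may differ from the annotation the authors used. Identical windows of 50 and 100 bases were sought on both strands of all GENCODE M21 transcripts. Reads or counts were not used here, so no count model was fitted and no interval for counting error is given. Calls by size were also run on simulated data, at an assumed depth and with planted changes larger than 2-fold. Those settings differ from these data, so nothing is concluded from that run.

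The members, lists and pairs were chosen with earlier results of these data known. All 7 members are named, all genes of lists of 7 or fewer may be named, and of longer lists the 4 highest and up to 3 lowest under 1 FPKM, besides pairs, nearest genes and overlapping genes. Myod1 and Myf5 fall outside this rule and were named after their values were seen. Alternatives were another pseudocount, detection limit, filter, scaling, transcript length, set of ranked genes and row choice, and each library left out. Python 3.11.15, NumPy 2.4.6, pandas 2.3.3 and Matplotlib 3.10.9 were used.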

Additional observations from a re-analysis of the deposited data

How the results depend on the processing

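Leaving out replicate 1 or replicate 2 moved no level, ratio, rank, fragment estimate or list median by more than 1 SD, which with 2 libraries holds by construction. Taking the highest row per symbol changed no level, also by construction, since each of the 7 genes had a single row. Rescaling the libraries to each other used factors of 1.01 and 1.03. These were too small to move any of the 7 differences beyond the spread, so this setting could not have changed the outcome. No paired analysis was possible because the series has 1 group.

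Scaled to a common sum (TPM), levels were 776 for Mybpc3, 215 for Myom1, 201 for Obsl1, 10.8 for Ttn, 4.52 for Mybpc1, 2.03 for Myom2 and 0.956 for Mybpc2, in the same order. List medians in TPM were 127 for thick filament myosins, 43.4 for other family genes, 272, 172 and 103 for Z-disc, I-band and M-band partners, 225 for chaperones, 175 for splicing regulators, 67.95 for the 3M complex, 71.0 for kinases, 2379.7 for cardiomyocyte, 0.187 for skeletal muscle, 153 for smooth muscle, 80.0 for endothelial and 3306 for red cell markers.

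With a pseudocount of 0.1 FPKM, the log2 ratio was 7.34 for Mybpc3 over Mybpc1, 9.32 for Mybpc3 over Mybpc2, 1.98 for Mybpc1 over Mybpc2, 6.55 for Myom1 over Myom2, -4.29 for Ttn over Myom1, -4.19 for Ttn over Obsl1, 4.19 for Obsl1 over Ttn, 6.14 for Mybpc3 over Ttn, 1.21 for Ttn over Mybpc1, 1.06 for Mybpc1 over Myom2 and 0.92 for Myom2 over Mybpc2. A smaller pseudocount shrinks ratios of low genes less. Myom2 over Mybpc2, at 0.38, exceeded the 0.32 spread of all genes but not the 0.42 of the 500 genes nearest in level, a limit added after the data were seen.

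Among protein-coding genes averaging at least 1 FPKM, Mybpc3 was above 98.9%, Myom1 above 94.7%, Obsl1 above 94.1%, Ttn above 21.7%, Mybpc1 above 5.87%, and Myom2 and Mybpc2 above 0%, by construction. With a detection limit of 0.5 FPKM, 6 members were detected, Myom2 among them, and with a limit of 5 FPKM, 3 members were. Genes differing 2-fold numbered 31 at a mean of 5 FPKM or more, against 93 at 1 FPKM. With the median coding transcript length, FPM values were 290.4 for Obsl1, 8.88 for Ttn, 4.90 for Mybpc1 and 0.751 for Mybpc2. The files give no absolute depth, so no counting error can be set beside these levels.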

Other observations

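Ttn has the second longest transcript of the protein-coding genes measured. Of 71 protein-coding genes with a transcript of 15000 bases or more, Ttn ranked 20 by mean FPKM and 6 by FPM, the estimated share of fragments. The choice of these 71 genes and the ranks by length and FPM rest on the longest annotated transcript. The fragments of a gene may have come from a shorter one. The median of the 71 genes was 1.78 FPKM, and 40 of them had a mean of 1 FPKM or more, with a median of 4.14 FPKM. Of these 40 genes, 37 were lower in replicate 2 than in replicate 1, with a median log2 difference of -0.18. Long genes named here after their values were seen include Slc8a1, the sodium-calcium exchanger, at 112 ± 10.5 FPKM, Macf1, a cytoskeletal crosslinker, at 30.3 ± 4.21 FPKM, and Neb, the nebulin gene of skeletal thin filaments, at 0.207 ± 0.0733 FPKM. Also named after its value was seen, Ryr2, the cardiac calcium release channel, was at 7.66 ± 1.24 FPKM. It was 0.795 times as high in replicate 2 as in replicate 1, against 0.829 times for Ttn. Macf1, at 0.821 times, was closer to Ttn, so the likeness is not particular to Ryr2.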
